A study of Mus musculus with 2 samples.

Results

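The genes described here are 10 of the 21951 gene features counted in endothelial cells (ECs) sorted from the liver and heart of mouse pups. They were chosen by name as the signals by which the liver endothelium is known to act on its neighbours, and the factors that go with them. The choice was made with earlier results of these data known. Wnt2, Wnt9b and Rspo3 act through Wnt signalling, Bmp2 and Bmp6 are bone morphogenetic proteins (BMPs), Hgf and Kitl are growth factors, Dll3 is a Notch ligand, and Gata4 and Maf are transcription factors. The cells came from C57BL/6 pups injected once at postnatal day 3 (P3) with 40 mg/kg 4-hydroxytamoxifen (4-OHT) and collected 3 days later, at a labelled age of P6 to P7. There were 3 genotypes per tissue: a control whose alleles the labels do not give, Cdh5-CreERT2 with iSuRe-Cre, and Cdh5-CreERT2 with iSuRe-HadCre. Cdh5-CreERT2 is an inducible Cre under an endothelial promoter, iSuRe-Cre adds permanent Cre with a membrane Tomato reporter, and iSuRe-HadCre adds Cre only transiently before the reporter is switched on. Floxed Notch1 in the iSuRe groups is known from the study and not from the labels. ECs were sorted as CD31+ MbTomato+ cells per the protocol, while the design text speaks of the presence or absence of Tomato, and the number of pups per group was not given in the sources used here.

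All cells were read in 1 pooled droplet library, in which a hashtag antibody marked the tissue and genotype of each cell, so each group is 1 sample and no test between groups exists. A cell was given to a group when that group's hashtag alone passed its minimum, and kept when its log-normalised Cdh5 exceeded 0.9. This gave 54 cells of control liver, 858 of iSuRe-Cre liver, 76 of iSuRe-HadCre liver, 254 of control heart, 435 of iSuRe-Cre heart and 311 of iSuRe-HadCre heart, 1988 in all. Summed depth ran from 624048 unique molecular identifiers (UMIs) in control liver to 9341120 in iSuRe-Cre liver, and the median depth per cell from 7322 to 16379 UMIs. Levels are UMIs of the gene per 1000000 UMIs of the group (CPM) with exact Poisson 95% intervals, and ratios carry exact conditional 95% intervals. These intervals cover counting error only and say nothing of the spread between animals.

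The labels were checked before the genes were compared. The targeted Notch1 stood at 160 CPM in control liver and 138 CPM in control heart, against 12.6 to 30.7 CPM in the 4 iSuRe groups and 19.5 CPM in free RNA, that is, in barcodes with 10 to 100 UMIs. A list of 8 pan-endothelial genes was detected in full in every group, at a summed 3306 to 4699 CPM. A list of 8 liver sinusoidal genes summed to 3392 CPM in iSuRe-Cre liver, 754 CPM in iSuRe-HadCre liver and 210 CPM in control liver, where Dnase1l3 was at 0, and to 40.9 to 56.8 CPM in the hearts. The cells labelled control liver therefore lacked most of the sinusoidal signature: 0 of 54 carried 20 or more sinusoidal UMIs per 10000, against 447 of 858 and 8 of 76 in the iSuRe-Cre and iSuRe-HadCre livers. Heart capillary genes, by contrast, reached 80 UMIs per 10000 in 12, 126 and 16 cells of the control, iSuRe-Cre and iSuRe-HadCre livers. The hashtag of iSuRe-Cre liver was also found at 25 or more UMIs in 31.7% to 42.1% of the cells of the other groups. Reporter sequence (WPRE) was counted at 396 and 562 CPM in the control liver and heart, above the 105 and 63.5 CPM of the iSuRe-Cre groups. The study also removed cells with log-normalised WPRE at or below 0.5, a limit not applied here. Above it were 379 of 858 iSuRe-Cre liver cells and 145 of 435 iSuRe-Cre heart cells. In iSuRe-HadCre liver and heart 66 of 76 and 292 of 311 cells were above it.

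Between them, the blood vessels of the liver and its hepatocytes exchange signals that shape the lobule. Wnt2, Wnt9b and the Wnt enhancer Rspo3 are made by ECs around the central vein and by sinusoidal ECs, and keep the neighbouring hepatocytes in their perivenous state. Bmp2 and Bmp6 from sinusoidal ECs raise hepatocyte hepcidin and so control iron, and Hgf acts on hepatocytes through the receptor Met. Kitl is the ligand of Kit on blood stem and progenitor cells, which the liver still holds around birth. Gata4 is the zinc finger factor that sets the sinusoidal against the continuous capillary state, and Maf is a leucine zipper factor of sinusoidal and lymphatic ECs. In the heart, Gata4 is known from the endocardium and the cardiomyocytes.

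**Figure D1:**
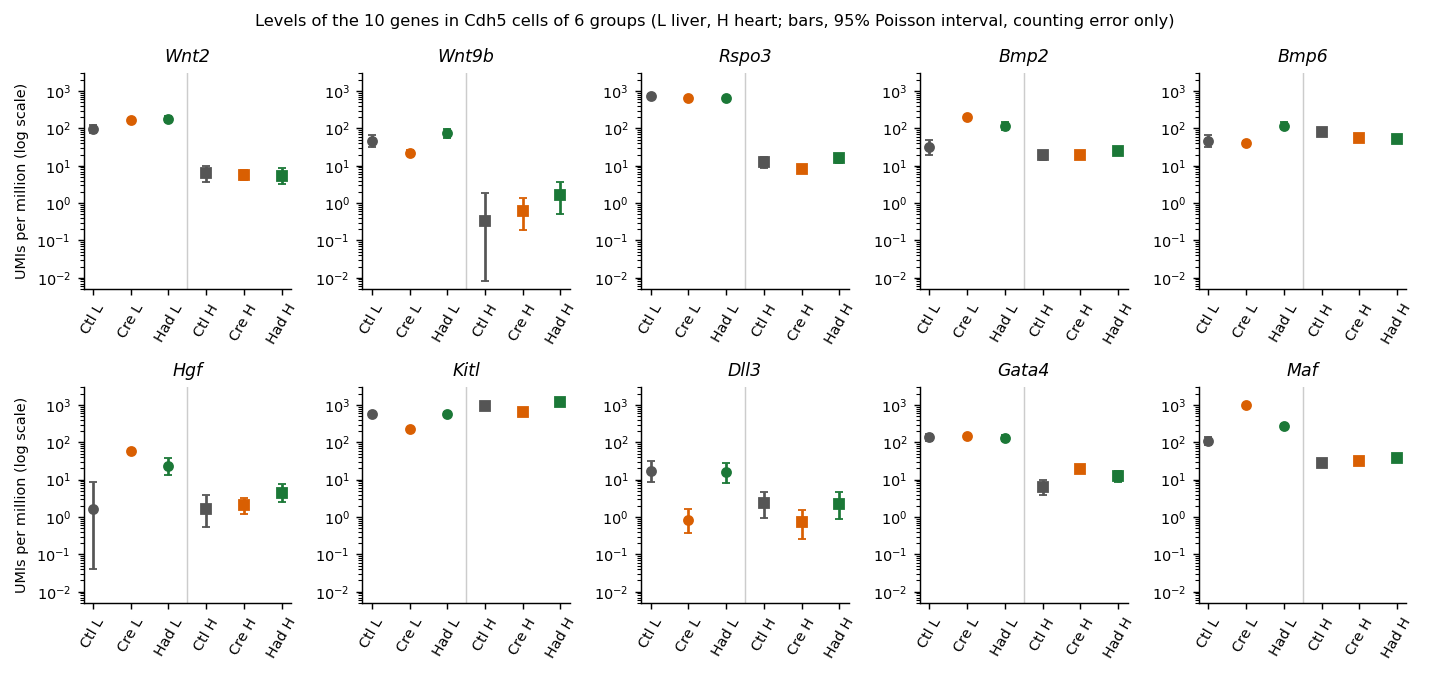
Level of each of the 10 genes in the 6 groups, in CPM on a log axis, with bars for the exact Poisson 95% interval of the count and 1 sample per group. Wnt2, Wnt9b, Rspo3 and Gata4 sit higher in the 3 livers than in the 3 hearts, whereas Kitl is highest in the 3 hearts.

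The 3 Wnt pathway genes were higher in liver than in heart in every genotype. Wnt2 stood at 96.1, 165 and 174 CPM in control, iSuRe-Cre and iSuRe-HadCre liver and at 6.27, 5.78 and 5.48 CPM in the matching hearts. No liver overlapped a heart, and the liver to heart ratio was 15.3 (9.02 to 27.2), 28.5 (21.4 to 38.8) and 31.8 (19 to 56.4) in cells of the control, iSuRe-Cre and iSuRe-HadCre genotypes. The iSuRe-HadCre and iSuRe-Cre livers could not be separated from each other by counting error, with a ratio of 1.06 (0.871 to 1.28), and neither could any of the 3 hearts from its neighbour in the order. Wnt2 lies on chromosome 6 (chr6:17988940-18030585, minus strand, GRCm38).

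Rspo3, a secreted partner that keeps Wnt receptors at the surface, was at 749.9 CPM in control liver, 671 CPM in iSuRe-Cre liver and 641 CPM in iSuRe-HadCre liver. In the hearts it was at 12.5, 8.31 and 16.1 CPM, below its 62.9 CPM in free RNA. The liver to heart ratio was 59.8 (42.9 to 85.6), 80.7 (63.7 to 104) and 39.8 (29.7 to 54.5) in control, iSuRe-Cre and iSuRe-HadCre cells. Among the 9742 genes with at least 200 UMIs, these ratios ranked 10, 22 and 6 from the top. The 3 livers lay close together, the control to iSuRe-Cre ratio being 1.12 (1.02 to 1.23). This depended on the hashtag rule. With HTODemux, the study's method, Rspo3 was at 2.16 times control in iSuRe-Cre liver and 0.50 times in iSuRe-HadCre liver.

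Wnt9b, the Wnt ligand of the central vein, was also on the liver side. Its 29, 211 and 51 UMIs in the control, iSuRe-Cre and iSuRe-HadCre livers gave 46.5, 22.6 and 74.7 CPM. The hearts held 1, 5 and 5 UMIs, and free RNA held none in 922778 UMIs. The ratio of liver to heart was 141 (23.3 to 5751), 37.5 (15.8 to 117) and 46.3 (18.6 to 149) in cells of the control, iSuRe-Cre and iSuRe-HadCre genotypes, the first of these resting on a single UMI in the control heart. One cell of control liver held 13 of the 29 UMIs (44.8%). Wnt9b is on chromosome 11 (chr11:103727364-103749821, minus strand, GRCm38).

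Promoter sequence from RefSeq (GRCm38.p6, 250 bases before to 50 after the start) was at hand for 6 of the 10 genes, not for Rspo3, Bmp2, Gata4 or Maf, with 2 starts for Hgf. As the set joins signals with the factors Gata4 and Maf, the windows were searched for the letters of both kinds of factor, first on both strands for the GATA core, spelled AGATAA or TGATAA with the last A also allowed as G, which 29.8% of all 32851 windows hold. A match was found in Wnt2 (AGATAG at position -246, counted from the RefSeq start, and TGATAA, on the opposite strand, at -9), in Dll3 (TGATAG at -243) and at the first start of Hgf (AGATAG at -34), and in none of the windows of Wnt9b, Bmp6 and Kitl or the second start of Hgf. TGCTGA, the core letters of MAF sites, was searched on both strands too. It is in 19.5% of all windows and was found in Wnt9b alone, at -144. The 3 sequences below are those of the Wnt ligands, which differ in these letters, and of Hgf, whose level followed the sinusoidal cells. Each is written 5′ to 3′ in the direction of the gene and stops at the start of the gene as GENCODE annotates it, which for Wnt2 lies upstream of the RefSeq start, so that its second match is outside the stretch shown. Capitals mark the GATA letters. A match is a string of letters and no measured binding site.
Wnt2, chr6:18030586-18030695, minus strand: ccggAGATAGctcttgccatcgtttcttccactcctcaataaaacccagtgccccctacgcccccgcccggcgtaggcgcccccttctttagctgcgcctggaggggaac
Wnt9b, chr11:103749822-103750071, minus strand: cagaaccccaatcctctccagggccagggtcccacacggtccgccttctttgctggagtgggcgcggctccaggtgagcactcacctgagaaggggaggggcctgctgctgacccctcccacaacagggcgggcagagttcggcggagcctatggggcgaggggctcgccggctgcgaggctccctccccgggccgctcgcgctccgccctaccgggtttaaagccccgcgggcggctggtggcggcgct
Hgf, chr5:16553245-16553494, plus strand: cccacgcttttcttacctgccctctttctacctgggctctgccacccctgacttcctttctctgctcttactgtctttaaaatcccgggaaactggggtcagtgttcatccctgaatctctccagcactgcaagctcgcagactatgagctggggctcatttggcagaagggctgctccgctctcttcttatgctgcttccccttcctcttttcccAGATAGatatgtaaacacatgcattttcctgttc

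The 2 BMP ligands did not behave alike. Bmp2 was at 200.0 CPM in iSuRe-Cre liver, 117 CPM in iSuRe-HadCre liver and 32 CPM in control liver, and at 18.8, 20 and 24.5 CPM in the control, iSuRe-Cre and iSuRe-HadCre hearts. The control liver, the poorest in sinusoidal genes, was not separated from the hearts by counting error, with a liver to heart ratio of 1.70 (0.969 to 2.88). In iSuRe-Cre cells the ratio was 10.0 (8.53 to 11.8) and in iSuRe-HadCre cells 4.78 (3.45 to 6.63). Free RNA held Bmp2 at 28.2 CPM (18.4 to 41.3), a range that includes control liver and the hearts.

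Bmp6 was at 46.5, 41.1 and 119 CPM in control, iSuRe-Cre and iSuRe-HadCre liver, and at 79.5, 56.8 and 52.2 CPM in the hearts. Its liver to heart ratio was 0.584 (0.383 to 0.861), 0.723 (0.63 to 0.829) and 2.27 (1.72 to 2.98) in cells of the control, iSuRe-Cre and iSuRe-HadCre genotypes, so that only the iSuRe-HadCre pair passed 2-fold. Single cells held many of these UMIs: 22 of 81 (27.2%) in iSuRe-HadCre liver and 78 of 384 (20.3%) in iSuRe-Cre liver. Free RNA held Bmp6 at 37.9 CPM (26.4 to 52.8), a range that includes control and iSuRe-Cre liver.

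Hgf, the hepatocyte growth factor, was counted once in control liver, 537 times in iSuRe-Cre liver and 16 times in iSuRe-HadCre liver, which is 1.6, 57.5 and 23.4 CPM. The hearts held 5, 17 and 14 UMIs, or 1.65, 2.05 and 4.51 CPM, and free RNA stood at 21.7 CPM. The liver to heart ratio was 0.971 (0.0205 to 8.68), 28.1 (17.4 to 48.6) and 5.19 (2.37 to 11.5) in cells of the control, iSuRe-Cre and iSuRe-HadCre genotypes. Stellate cells, a main source of Hgf, have Lrat as their defining gene: it was at 0 in every group other than iSuRe-Cre liver. The summed mesenchymal and stellate list was at 771, 522 and 574 CPM in control, iSuRe-Cre and iSuRe-HadCre liver, and its part in the Hgf levels was not tested.

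Kitl was the only gene of the set past 2-fold towards the heart. It stood at 917, 639 and 1222 CPM in control, iSuRe-Cre and iSuRe-HadCre heart and at 578, 226 and 592 CPM in the livers. Every heart was above every liver, but the lowest heart and the highest liver were not separated, with a ratio of 1.08 (0.976 to 1.20). Free RNA held Kitl at 220 CPM (191 to 252), close to the 226 CPM of iSuRe-Cre liver. The ratio of liver to heart was 0.631 (0.563 to 0.704), 0.353 (0.335 to 0.371) and 0.484 (0.436 to 0.536) in control, iSuRe-Cre and iSuRe-HadCre cells. A Kitl UMI was seen in 93.8% to 96.5% of heart ECs and in 59.8% to 83.3% of liver ECs. After thinning to 2000 UMIs the shares were 64.0% to 80.8% and 28.0% to 52.0%. In hepatocyte-list cells, at a median of 4794 UMIs, it was 52.5%, and 21.6% after thinning, so the shares in liver ECs are to be read against that background.

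Dll3, a Notch ligand known for acting inside the cell that makes it, was close to the detection limit. Over the 6 groups it gave 50 UMIs, below the 200 set for a tested gene. All 11 UMIs of control liver came from 1 cell, and so did all 11 of iSuRe-HadCre liver. Its ratios of liver to heart, 7.63 (2.70 to 23.2) in control and 7.14 (2.53 to 21.7) in iSuRe-HadCre cells, went to 0 without those cells, and the counting interval does not cover that spread. In iSuRe-Cre cells 8 liver and 6 heart UMIs gave 1.19 (0.361 to 4.14).

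Gata4 (chr14:63198922-63271692, minus strand, GRCm38) was higher in the 3 livers than in the 3 hearts. It stood at 139 CPM in control liver, 150.4 CPM in iSuRe-Cre liver and 132 CPM in iSuRe-HadCre liver, and at 6.27, 19.1 and 12.6 CPM in the hearts. The 3 livers were not separated from each other by counting error, and the nearest heart lay 6.88-fold (5.25 to 8.97) below the lowest liver. The liver to heart ratio was 22.2 (13.4 to 38.7), 7.86 (6.66 to 9.31) and 10.5 (7.13 to 15.7) in cells of the control, iSuRe-Cre and iSuRe-HadCre genotypes. The likeness of the livers depended on the hashtag rule. With HTODemux, the study's method, Gata4 in iSuRe-Cre liver was at 2.43 times control liver, and in iSuRe-HadCre liver at 0.953 times. A list of 8 endocardial genes, among them Vwf and Plvap, was also higher in liver in each genotype. It was at 1437, 675 and 1038 CPM in control, iSuRe-Cre and iSuRe-HadCre liver against 421, 623 and 423 CPM in the hearts. The iSuRe-Cre pair thus lay close together on this list, unlike Gata4, and the part of the list in the result was not tested.

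By cell, a Gata4 UMI was seen in 48.1%, 57.8% and 40.8% of liver ECs and in 4.33%, 14.9% and 4.18% of heart ECs. After thinning each cell to 2000 UMIs the shares were 23.7%, 23.9% and 20.9% in the livers and 1.04%, 3.82% and 1.76% in the hearts. In erythroid-list cells, which should lack the gene, the share was 4.95% at a median of 3381.5 UMIs and 2.20% after thinning, and in hepatocyte-list cells it was 4.96% at 4794 UMIs and 1.49% after thinning. The control and iSuRe-HadCre hearts, at median depths of 9100 and 7322 UMIs, were within this background share, and all 3 livers were well above it.

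Maf was at 1002 CPM in iSuRe-Cre liver, 268 CPM in iSuRe-HadCre liver and 109 CPM in control liver, and at 28.4, 31.7 and 39 CPM in the hearts. The 3 livers were apart from each other and above all 3 hearts. Free RNA held Maf at 135 CPM (113 to 161), a level that control liver and the hearts did not exceed. That is the level within free RNA, and how much of it entered each cell was not measured. With 10% of the UMIs of each group taken as free RNA and subtracted, the control liver to heart ratio was 6.43. The ratio of liver to heart was 3.84 (2.75 to 5.34), 31.7 (28 to 35.9) and 6.87 (5.43 to 8.72) in cells of the control, iSuRe-Cre and iSuRe-HadCre genotypes. Macrophages also make Maf: cells of this library that carried the macrophage list and had no Cdh5 above the limit held it at 751 CPM (716 to 786). The macrophage list was at 11.2 CPM in control liver, where 5 of its 6 genes, Csf1r among them, were at 0, against 195 CPM in iSuRe-Cre and 71.7 CPM in iSuRe-HadCre liver. Lymphatic ECs make Maf as well, and the lymphatic list was at 64.1, 397 and 68.8 CPM in the 3 livers, with Ccl21a at 0 in the control and iSuRe-HadCre cells, and the part of either list in the result was not tested.

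**Figure D2:**
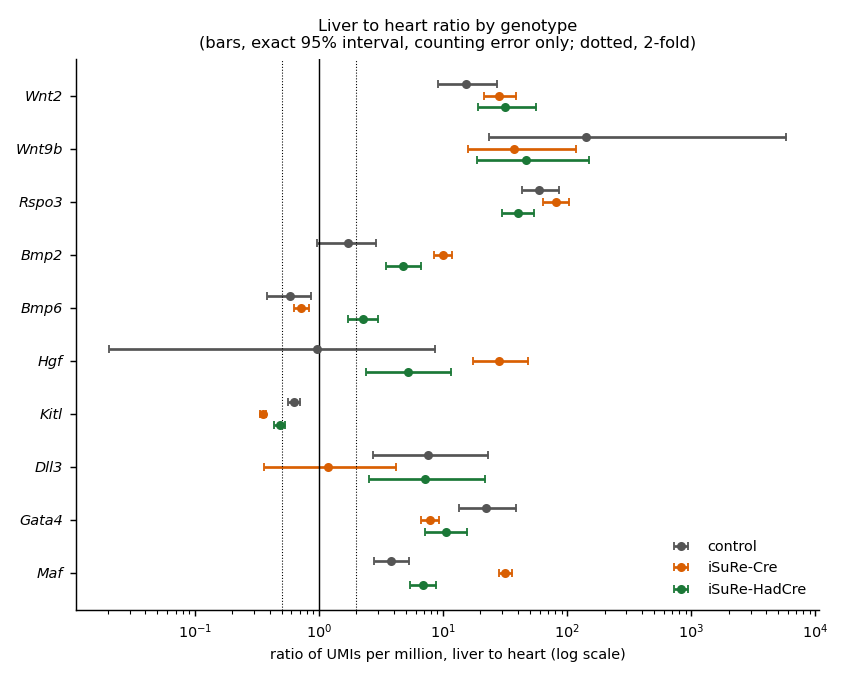
Ratio of liver to heart level for each gene in the 3 genotypes on a log axis, with bars for the exact conditional 95% interval and dotted lines at 2-fold. Wnt2, Wnt9b, Rspo3, Gata4 and Maf are right of the upper line in all 3 genotypes, whereas Kitl lies left of 1 in all 3.

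Counted by genotype, 6 of the 10 genes were at least 2-fold higher in liver in control cells, against 8.61% of the 9742 genes tested, 7 in iSuRe-Cre cells, against 7.2%, and 9 in iSuRe-HadCre cells, against 4.58%. In the other direction 0, 1 and 1 of them, Kitl both times, were at least 2-fold higher in heart, against 4.59%, 3.93% and 5.4% of all genes. Wnt2, Wnt9b, Rspo3, Gata4 and Maf passed 2-fold towards liver in all 3 genotypes, 5 of 10 against 1.9% of all genes, and none passed towards heart in all 3, against 0.698%. The median log2 ratio of the 10 genes was 2.44, 4.07 and 2.81 in control, iSuRe-Cre and iSuRe-HadCre cells, where all tested genes had medians of 0.11, 0.11 and -0.00. All 10 genes enter these counts, of which 9 passed the minimum of 200 UMIs. They were chosen as liver signals with earlier results of these data known, so the shares of all genes are a background and no test. Demultiplexing with HTODemux, as the study did, put 230, 854 and 287 cells in the livers and lowered the liver to heart ratios of Wnt2, Wnt9b, Rspo3 and Gata4 in all 3 genotypes. In control cells Rspo3 was then at 10.9, Gata4 at 7.42, Wnt2 at 6.00 and Wnt9b at 35.9, and in iSuRe-HadCre cells Rspo3 was at 4.58, Gata4 at 3.54, Wnt2 at 3.56 and Wnt9b at 3.93.

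Within iSuRe-Cre liver, the group with most cells, the levels of several genes differed along the sinusoidal signature. The 858 cells of iSuRe-Cre liver were placed in 4 ranges of the 8-gene sinusoidal list, which holds none of the 10 genes: 264 cells below 5 UMIs per 10000, 147 from 5 to 20, 86 from 20 to 40 and 361 at 40 or more. These are ranges and not cell types, with 116 cells within 2 of the cut at 5, 39 within 5 of the cut at 20 and 32 within 5 of the cut at 40.

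Rspo3 went down across the ranges, from 1491 to 709, 297 and 63.2 CPM, a difference of 23.6-fold (20.5 to 27.2) between the ends. Wnt9b went from 51.1 to 27.5, 5.05 and 1.52 CPM, and its ratio of top to lowest range was 0.0297 (0.0095 to 0.0709). Kitl was at 373, 233, 149 and 120.05 CPM (ratio 0.322). These 3 genes were highest in the cells with the least sinusoidal signature, which also held Vwf, a gene of large vessels, at 354 CPM against 42.5 CPM at the top.

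Maf, Bmp2 and Hgf took the opposite course. Maf went from 131 to 393, 944 and 2129 CPM, 16.3-fold (14.7 to 18) between the ends. Bmp2 was at 37.1, 60.5, 162 and 435 CPM, 11.7-fold (9.66 to 14.4), and Hgf at 6.68, 12, 59.8 and 126 CPM, 18.8-fold (12 to 31.2). In cells that carried the macrophage or the mesenchymal list, Maf was at 751 and 88.3 CPM and Hgf at 9.98 and 23.6 CPM, and the part of such cells in these differences was not tested.

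Gata4 and Wnt2 were counted in all 4 ranges of iSuRe-Cre liver. Gata4 was at 109.6 CPM in each of the lower ranges, 115 CPM in the next and 223 CPM at the top, 2.04-fold (1.78 to 2.33) between the ends, and Wnt2 was at 148, 129, 138 and 209 CPM, a ratio of 1.42 (1.25 to 1.60). The lowest range of Gata4 was still 5.72-fold above the iSuRe-Cre heart. Bmp6 was at 63.5, 30.5, 23.8 and 33.4 CPM, with 41.1% of the UMIs of the lowest range in 1 cell.

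The other livers had few cells above the lowest range and did not always follow this order. In control liver, with 44 cells below 5 and 10 from 5 to 20, Rspo3 was at 711 and 1069 CPM, with 72.2% of the latter UMIs in 1 cell, and Vwf at 343 and 1024 CPM. Maf was at 70.1 and 430.4 CPM there. In iSuRe-HadCre liver, with 54, 14, 1 and 7 cells, Gata4 was at 66.6, 174, 1167 and 578 CPM and Maf at 66.6, 390.0, 1283 and 2105 CPM. Bmp2 was at 123 CPM in its lowest range, 16.6 CPM in the next and 347 CPM in the top one.

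**Figure D3:**
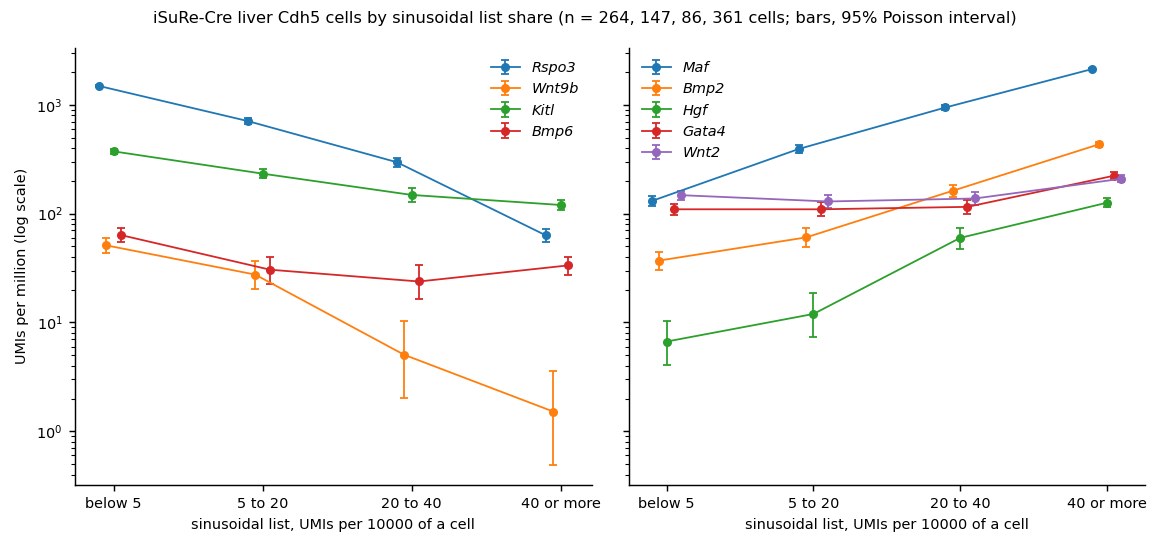
Level of 9 of the genes in cells of iSuRe-Cre liver, placed in 4 ranges of the sinusoidal list, in CPM on a log axis with exact Poisson 95% intervals. Rspo3 and Wnt9b go down towards the sinusoidal end, Maf, Bmp2 and Hgf go up, and Gata4 and Wnt2 move by 2.04-fold and 1.42-fold.

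The 90 cells of iSuRe-Cre liver with a Wnt9b UMI stood out in the other Wnt genes. Rspo3 was at 3168 CPM in them against 289 CPM in the 768 cells without one, and was detected in 87 of 90 against 210 of 768. Wnt2 was at 402 against 128 CPM, and Vwf at 586 against 130.4 CPM. Conversely, Maf was at 335 against 1104 CPM, Bmp2 at 75.9 against 219 CPM and the sinusoidal receptor Stab2 at 274 against 1625 CPM. Gata4 was at 199 against 143 CPM. The cells with a Wnt9b UMI were deeper, with a median of 11112 against 8364 UMIs. After thinning to 2000 UMIs, Rspo3 was still found in 88.7% of them and in 15.1% of the rest.

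In the heart, Gata4 was higher in cells with an endocardial signature. Cells with 20 or more UMIs per 10000 of an 8-gene endocardial list, with Npr3 as its defining gene, numbered 7, 46 and 12 in control, iSuRe-Cre and iSuRe-HadCre heart. They held Gata4 at 126, 167 and 195 CPM, close to the level of liver ECs, against 1.71, 6.16 and 6.65 CPM in the other 247, 389 and 299 cells. Of the Gata4 UMIs of each heart, 14 of 19, 112 of 159 and 19 of 39 were in these cells.

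Wnt2 showed the same skew in the iSuRe hearts. It was at 44.7 CPM in the endocardial-list cells of iSuRe-Cre heart and 113 CPM in those of iSuRe-HadCre heart, against 2.36 and 2.0 CPM in the rest. The value of 113 CPM (56.4 to 202) rested on 11 UMIs in 12 cells. In that heart 1 cell held 8 of the 17 Wnt2 UMIs, so the skew there rests on very few cells. The control heart held 2 Wnt2 UMIs in such cells, which is 18 CPM (2.18 to 65.1), against 5.82 CPM in the rest. Kitl was lower in endocardial-list cells, at 117, 217 and 339 CPM against 948, 676 and 1251 CPM. Bmp6 gave no common direction, at 45.1, 223 and 10.3 CPM against 80.8, 42.2 and 53.6 CPM.

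**Figure D4:**
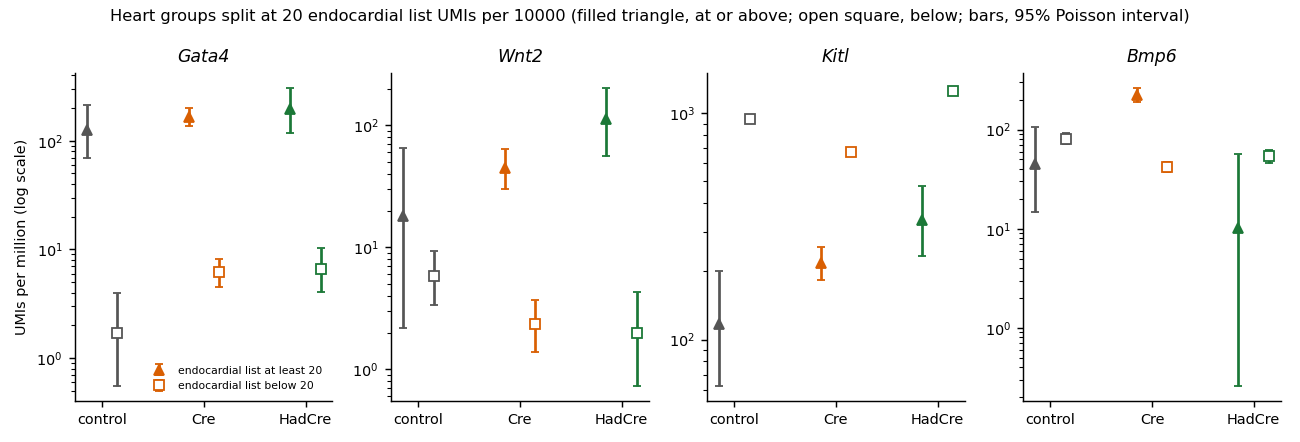
Levels of Gata4, Wnt2, Kitl and Bmp6 in heart cells with 20 or more UMIs per 10000 of the endocardial list and in the other heart cells, in CPM on a log axis with exact Poisson 95% intervals. Gata4 is higher in the endocardial-list cells of all 3 hearts, at 126 to 195 CPM against 1.71 to 6.65 CPM, and Kitl is lower in all 3.

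The comparison with control asks how the genes stand after each iSuRe allele with Notch1 deletion. The comparisons of a tissue share 1 control sample, and the allele, the deletion and the animals cannot be told apart. In iSuRe-Cre liver 6 of the 10 genes were at least 2-fold from control, against 12.3% of all genes, with Bmp2, Hgf and Maf higher and Wnt9b, Kitl and Dll3 lower. The Dll3 call set 8 UMIs against 11 that all came from 1 control liver cell, and Dll3 was below the 200 UMIs set for a tested gene. In iSuRe-HadCre liver 4 were, against 11.5%, namely Bmp2, Bmp6, Hgf and Maf, all higher.

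The 3 genes that were higher in both iSuRe livers were those that went up with the sinusoidal list. Bmp2 was 6.24-fold (4.03 to 10.2) above control in iSuRe-Cre and 3.65-fold (2.22 to 6.30) in iSuRe-HadCre liver. Maf was 9.20-fold (7.25 to 11.9) and 2.46-fold (1.85 to 3.30) above it. Hgf was 35.9-fold (6.41 to 1420) and 14.6-fold (2.27 to 613) above the single UMI of control liver, and 1 cell held 6 of the 16 UMIs of iSuRe-HadCre liver (37.5%). Bmp6 was 2.55-fold (1.65 to 4.05) above control in iSuRe-HadCre liver alone, and 1.45-fold above it without cells of the other groups that carried 25 or more UMIs of the iSuRe-Cre liver hashtag. With HTODemux the ratios in iSuRe-Cre and iSuRe-HadCre liver were 3.65 and 1.03 for Hgf, 6.15 and 1.61 for Bmp2 and 9.54 and 1.67 for Maf. Bmp6 in iSuRe-HadCre liver was then at 1.87, so no 2-fold call reported for that liver was kept. The sinusoidal list itself moved with Bmp2, Maf and Hgf, from 210 CPM in control to 3392 and 754 CPM. The groups were therefore also compared over the cells below a list level of 5.

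In those low-sinusoidal cells, 44 of control, 264 of iSuRe-Cre and 54 of iSuRe-HadCre liver, the ratios to control of Maf were 1.87 (1.34 to 2.67) and 0.95 (0.582 to 1.55). Bmp2 was at 1.38 (0.799 to 2.54) in iSuRe-Cre but at 4.58 (2.58 to 8.66) in iSuRe-HadCre liver, where 1 cell gave 25.4% of its UMIs. Bmp6 was at 1.47 (0.960 to 2.35) and 3.09 (1.91 to 5.14), the latter with 32.4% of its UMIs in 1 cell. Rspo3 was at 2.10 (1.89 to 2.33) and 0.969 (0.837 to 1.12), where over all cells it had been at 0.895 (0.814 to 0.985) and 0.855 (0.749 to 0.976). Gata4 was at 0.847 (0.655 to 1.11) and 0.515 (0.332 to 0.784), against 1.08 (0.868 to 1.36) and 0.945 (0.696 to 1.28) over all cells. Hgf, at 20 and 6 UMIs against 1, was at 3.72 (0.595 to 154) and at 6.54 with a lower bound of 0.794, and both intervals include 1.

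Among the other genes of the liver, Wnt2 was 1.71-fold (1.32 to 2.25) above control in iSuRe-Cre and 1.81-fold (1.32 to 2.51) in iSuRe-HadCre liver, short of 2-fold in both. Wnt9b was at 0.486 (0.329 to 0.744) and 1.61 (0.999 to 2.63) of control, the first reaching 0.999 with Cdh5 above 1.5 and 0.981 (0.656 to 1.51) in low-sinusoidal cells. Kitl was at 0.390 (0.349 to 0.437) in iSuRe-Cre liver and 1.02 (0.885 to 1.18) in iSuRe-HadCre liver, and at 0.597 (0.529 to 0.675) and 1.10 (0.945 to 1.28) in low-sinusoidal cells. The 2-fold calls of Wnt9b and Kitl in iSuRe-Cre liver were thus lost in those cells. With HTODemux the Wnt2 ratios to control were 2.92 in iSuRe-Cre liver, past 2-fold, and 1.00 in iSuRe-HadCre liver. Wnt9b in iSuRe-Cre liver was then at 0.976 of control, so its call was lost there too.

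In the hearts fewer genes were apart from control. In iSuRe-Cre heart 2 of 10 were past 2-fold, against 6.31% of all genes, Gata4 higher and Dll3 lower. In iSuRe-HadCre heart 3 were, against 4.75%, with Wnt9b, Hgf and Gata4 higher. Wnt9b rested on 5 UMIs against 1, a ratio of 4.88 (0.546 to 231), and Hgf on 14 against 5, a ratio of 2.73 (0.931 to 9.70), and both intervals include 1. Dll3 in iSuRe-Cre heart rested on 6 UMIs, all in 1 cell, against 7 in control heart. Its ratio was 0.313 (0.0868 to 1.09), an interval that also includes 1.

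Gata4 was 3.05-fold (1.89 to 5.21) above control in iSuRe-Cre heart and 2.00-fold (1.13 to 3.67) in iSuRe-HadCre heart. The endocardial-list cells made up 46 of 435 and 12 of 311 cells there and 7 of 254 in control heart, and in the cells below that list level Gata4 rested on 5, 47 and 20 UMIs in control, iSuRe-Cre and iSuRe-HadCre heart. Without cells that carried 25 or more UMIs of the iSuRe-Cre liver hashtag, the Gata4 ratios were 8.17 and 6.81. The iSuRe-HadCre value stood on the 2-fold line and passed it in 11 of 20 alternatives, the lowest giving 1.52. Kitl was at 0.697 (0.665 to 0.730) of control in iSuRe-Cre heart and at 1.33 (1.27 to 1.40) in iSuRe-HadCre heart. The iSuRe-HadCre level of Kitl was 2.62-fold (2.35 to 2.92) the iSuRe-Cre level in liver and 1.91-fold (1.83 to 1.99) in heart. The hepatocyte list went the opposite way, at 667 and 792 CPM in the iSuRe-Cre liver and heart and 64.4 to 126 CPM in the other groups. Its part in the Kitl result was not tested. Bmp6 was at 0.715 (0.611 to 0.838) and 0.656 (0.535 to 0.804) of control in the iSuRe-Cre and iSuRe-HadCre hearts.

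**Figure D5:**
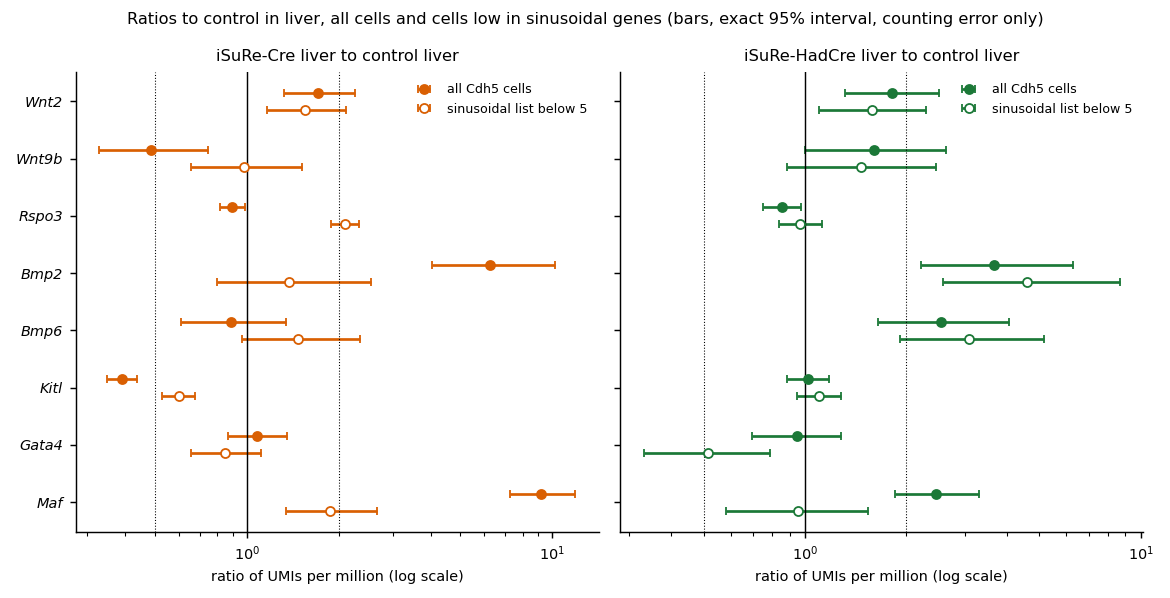
Ratio to control in liver of each gene other than Dll3 and Hgf, under iSuRe-Cre and under iSuRe-HadCre. Values are given for all Cdh5 cells and for cells below 5 on the sinusoidal list, on a log axis with exact conditional 95% intervals and dotted lines at 2-fold. Over all cells Maf and Bmp2 are right of the upper line in both livers, and the interval of Gata4 crosses 1 in both.

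The genes were also counted in cells outside the endothelial set. Some of these, such as cardiomyocytes for Gata4, are known to make the gene, so their levels are a comparison and not a background. Gata4 was at 31.7 CPM in 48 cells with the cardiomyocyte list and 3.42 CPM in 282 cells with the hepatocyte list. Rspo3 was at 132 CPM in 516 cells with the mesenchymal and stellate list and at 36.5 CPM in hepatocyte-list cells, both below the 641 to 749.9 CPM of liver ECs. A Rspo3 UMI was seen in 20.2% of hepatocyte-list cells and in 27.6% to 34.6% of liver ECs, and after thinning in 9.90% and in 22.2% to 22.8%. Kitl was at 109 CPM in hepatocyte-list cells.

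Other genes of the same pathways were read from fixed lists, in which only genes with 200 UMIs could be called. Of all genes tested, 1.9% passed 2-fold towards liver in all 3 genotypes and 0.698% towards heart. Of 20 other Wnt family ligands and R-spondins, 2 had 200 UMIs and neither passed in all 3. Their liver to heart ratios were 19.9 and 2.33 in control, 0.759 and 1.32 in iSuRe-Cre and 0.275 and 0.509 in iSuRe-HadCre cells. Of 20 genes of Wnt secretion, reception and feedback, 11 had 200 UMIs and none passed in all 3. Among the 4 tested of 10 other BMP family ligands, Inhbb, an activin subunit, was higher in liver in all 3, at 20.8, 15.5 and 17.6 CPM against 1.32, 3.49 and 2.58 CPM. Among the 11 tested of 14 BMP receptors, targets and inhibitors, Bmper, a secreted BMP binder, was higher in all 3, with liver to heart ratios of 15.5 (8.68 to 29.1), 2.07 (1.56 to 2.77) and 4.11 (2.09 to 8.03). Among the 15 tested of 20 other paracrine signals it was Edn1, the vasoconstrictor endothelin, at 171, 113 and 132 CPM in liver against 25.4, 21.6 and 30.3 CPM in heart.

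None of the 6 tested of 9 other GATA factors and partners passed in all 3 genotypes, nor did Kit, the receptor of Kitl. The receptor of Hgf was below 200 UMIs. Of 10 other liver endothelial transcription factors, all tested, 3 passed, all towards liver. Meis2 had ratios of 4.61 (4.04 to 5.26), 5.59 (5.26 to 5.94) and 4.10 (3.65 to 4.61), Nr2f2, a venous factor, 2.92 (2.48 to 3.44), 4.42 (4.15 to 4.71) and 3.81 (3.22 to 4.50), and Tfec 3.24 (0.672 to 13.7), 86.0 (33.3 to 317) and 31.8 (4.09 to 1433). No tested gene of these lists passed towards heart in all 3.

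The genes whose levels over the 6 groups were most like those of Gata4 were Sele, Mxra8, Cemip2, Golga7 and Emb, with Pearson correlations of log2(CPM + 10) of 0.999, 0.996, 0.995, 0.995 and 0.993. The 6 points share 1 library and fall into 3 livers and 3 hearts, so the values describe a likeness of pattern. Sele, the adhesion receptor E-selectin, was at 133, 126 and 117 CPM in the livers and 11.6, 26.3 and 16.8 CPM in the hearts. Of the other described genes, Rspo3 (0.977), Wnt2 (0.971) and Wnt9b (0.920) were closest to Gata4, followed by Maf (0.853), Bmp2 (0.784) and Hgf (0.643), and Bmp6 (-0.081) and Kitl (-0.751) were not.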

How the data were processed

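Liver and heart ECs of 6 hashtag groups were sequenced in 1 pooled 10x Genomics library, with 1 sample per group. Alignment and counting were done by the authors in Cell Ranger 7.1.0 against GRCm38 (Ensembl 98 genes plus transgenes), and the deposited matrix holds raw UMI counts over 2755147 barcodes with no normalization. Whether introns were counted was not given in the sources used here. Every column of the deposited counts belongs to this pool, and 0 per-sample columns were left unused.

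Cells were kept with 2000 to 75000 UMIs, over 500 genes, under 5% mitochondrial and under 5% haemoglobin UMIs (14348 cells), and with log-normalised Cdh5 (scale 10000) above 0.9 (7704 cells). A group's hashtag had to reach 25 UMIs (140 for hashtag 302, iSuRe-Cre liver) with every other hashtag below its minimum. This left out 131 cells with several hashtags as doublets and 5585 without one. No further doublet caller was run. UMIs were summed per group, and CPM, ratios and shares were given exact 95% Poisson, conditional binomial and Clopper-Pearson intervals. A gene was tested with 200 UMIs over the 6 groups (9742 genes), and a ratio of 2 in either direction was the rule for calling it. With 1 sample per group no p-value was computed. Shares of cells were also taken after thinning to 2000 UMIs, as the mean over all draws. TMM and median-of-ratios scaling were tried because they move all ratios of a comparison together. The ratio intervals and the thinning were checked on simulated counts, which for the ratios were Poisson draws without spread between cells.

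All 10 genes are described. Genes of other lists are named where 2-fold was passed in 1 direction in all 3 genotypes, and the 5 genes outside the lists most correlated with Gata4 are named. The 10 genes and all lists were chosen with earlier results of these data known. The cut values of the lists and 4 of the 20 alternatives (without the cell with most UMIs of a gene, liver cells low in heart capillary genes, liver cells low in sinusoidal genes, no other group's cells with 25 UMIs of hashtag 302) were chosen after seeing the data. Python 3.11.15, numpy 2.4.6, pandas 2.3.3, scipy 1.17.1, R 4.3.3, Seurat 5.3.0 and edgeR 4.0.16 were used. Gene positions are those of GENCODE (GRCm38), and promoter windows those of RefSeq (GRCm38.p6).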

Additional observations from a re-analysis of the deposited data

Results flagged for a closer look

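Bmp6 moved in opposite directions in the 2 tissues in iSuRe-HadCre cells. Its ratio to control was 2.55 (1.65 to 4.05) in liver, with 1 cell holding 22 of the 81 UMIs, and 0.656 (0.535 to 0.804) in heart. Each ratio compares 1 sample with 1 sample, and the difference between the tissues was not tested.

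A signal was also present in cells that belong to no comparison. Among the 5585 Cdh5 cells without a hashtag over its minimum, 90 carried 20 or more UMIs per 10000 of the sinusoidal list, a level that 0 of the 54 control liver cells reached. These 90 cells held Maf at 841 CPM (759 to 929), Bmp2 at 163 CPM (128 to 204) and Hgf at 41.3 CPM (24.9 to 64.5), above the 109, 32 and 1.6 CPM of control liver. Their genotype and tissue are not known, and they were chosen by the list with which these genes went up in iSuRe-Cre liver.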

How the results depend on the processing

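Over 20 alternatives, 1047 of 1340 ratios moved by less than their counting interval, 281 moved by more and 12, all past 2-fold as reported, crossed to the other side of 1. Of the 594 alternative values of ratios under 2-fold as reported, 75 also crossed 1, among them Rspo3 in iSuRe-Cre to control liver, from 0.895 to 2.16 with HTODemux, and Bmp6 in iSuRe-Cre liver to heart, from 0.723 to 1.12 in low-sinusoidal cells. Of 137 counts of genes, 128 were within 1.5 times the reported one. The genes at least 2-fold higher in liver numbered 6 to 8 in each of control and iSuRe-Cre and 6 to 9 in iSuRe-HadCre cells. Wnt2, Wnt9b, Rspo3, Gata4 and Maf stayed past 2-fold in every alternative that gave a value, except Maf in iSuRe-HadCre cells with liver cells below 5 on the sinusoidal list (1.71) and Wnt9b in the 8 iSuRe-HadCre liver cells at 20 or more (0). In iSuRe-HadCre cells the liver to heart ratio of Kitl was past 2-fold in 13 of 20 alternatives and that of Bmp6 in 12 of 20. With HTODemux, Kitl was at 0.570 and Bmp2 at 1.98 in these cells, both short of 2-fold. TMM factors of 1.09 for control liver and 0.933 for control heart shift all ratios of that pair, and turned no ratio past 2-fold around. Counts away from control were less stable. In iSuRe-HadCre liver 4 genes became 2 with a hashtag minimum of 10, 1 with HTODemux and 1 without the Cdh5 limit. The 1 gene with HTODemux was Rspo3, lower than control, which is not among the 4. In iSuRe-Cre heart 2 became 4 with the minimum of 10, 5 with HTODemux and 4 with WPRE above 0.5. In iSuRe-HadCre heart 3 became 1 with the minimum of 10 and 5 with a hashtag 3 times the next. In iSuRe-Cre liver 6 became 3 with liver cells below 5 on the sinusoidal list. Hgf in iSuRe-HadCre heart went to 0.886 (minimum of 10) and 0.467 (HTODemux) of control, and Maf in iSuRe-HadCre liver to 0.95 (low-sinusoidal cells). The Dll3 ratio of liver to heart went to 0 in control and iSuRe-HadCre cells with Cdh5 above 1.5, without the deepest 5% of cells and without the cell with most Dll3 UMIs, in control without cells with 25 UMIs of the iSuRe-Cre liver hashtag, and in iSuRe-HadCre cells at 20 or more on the sinusoidal list. The 54 and 76 cells of the control and iSuRe-HadCre livers limit the depth most. The cause of these changes was not tested beyond the cells each alternative leaves out. No paired analysis was possible because each group is 1 sample.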
